A study of Arabidopsis thaliana with 15 samples.

Results

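The comparison described here is that of closed flower buds of the Arabidopsis thaliana triple mutant elf6-3ref6Cjmj13G with those of the single mutant ref6C. It was chosen by genotype label and takes 6 of the 15 libraries of the series, 3 of each genotype. Both groups carry the ref6C allele in the Col0 background, so the groups differ by elf6-3 and jmj13G together. The other 9 libraries are wild type (WT), ref6-3 and the double mutant elf6-3ref6C, with 3 each. The plants were 5 weeks old, untreated, and grown in a greenhouse in long days. The labels do not say how the alleles were made, whether each is a single line, how many plants entered a library, or whether the replicates of a genotype came from separate plants. The p-values below therefore cover the spread among libraries only, and that spread may be a technical one. Bud size and stage are not labelled beyond unopened.

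REF6, ELF6 and JMJ13 are histone demethylases of the Jumonji C (JmjC) class. They remove methyl groups from lysine 27 of histone H3, the mark that Polycomb complexes place on silenced genes. REF6 also has zinc fingers that bind a short DNA motif. In flowering, REF6 is known as a repressor of FLC, and ELF6 was first described as a repressor of the photoperiod pathway. JMJ13 is known as a repressor of flowering that depends on temperature and day length, and REF6, ELF6 and JMJ13 have known roles in flower and stamen development.

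The 6 libraries held between 27234656 and 32176229 counts in genes. Library ref6C replicate 3 stood apart: it had a count in 29547 genes, against 25055 to 25712 in the other 14 libraries, and 1732 genes, 1176 of them transposable element genes, had a count there alone. The authors' file header states that they left this library out of their statistics for low reproducibility. Results are therefore given with it and without it. Ribosomal RNA also differed between the groups: the rRNA gene AT3G41768 was at 1766 to 2040 CPM (counts scaled to library size) in ref6C and at 3411 to 3707 CPM in the triple mutant, and its part in the results below was not tested. Summed levels of the 17 floral MADS-box genes, at 1418 to 1443 CPM in ref6C and 1077 to 1103 CPM in the triple mutant, show floral tissue in each library.

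The targeted genes were read first. ELF6 (AT5G04240, chr5:1169153-1174992, plus strand, TAIR10.1) was at 57.4, 56.4 and 56.7 CPM in ref6C and 8.54, 9.76 and 7.71 CPM in the triple mutant. The groups did not overlap, and the triple mutant was lower, with a log2 fold change of -2.72 ± 0.05 (SE, the error given after each log2 fold change below) and an adjusted p of 2.24e-24 in edgeR's quasi-likelihood test with Benjamini-Hochberg adjustment, which is the test behind every call below. In the double mutant, which also carries elf6-3, ELF6 was lower still, at 2.42, 2.49 and 2.69 CPM, and the step from the double to the triple mutant was called higher, with a log2 fold change of 1.76 ± 0.10. JMJ13 (taken to be AT5G46910, which is listed by its identifier with a jumonji description, chr5:19046339-19051379, plus strand) was at 22.3, 21 and 22.9 CPM in ref6C and 9.49, 8.73 and 8.9 CPM in the triple mutant. All triple mutant libraries lay below all ref6C libraries, with a log2 fold change of -1.28 ± 0.05 and an adjusted p of 1.62e-17. REF6 (AT3G48430), whose allele both groups share, was at 35.8, 36.7 and 36.5 CPM in ref6C and 37.3, 36.9 and 34.2 CPM in the triple mutant. These ranges overlapped and REF6 was not called (log2 fold change -0.0089 ± 0.04, adjusted p 0.88). In WT, REF6 stood at 69.4 ± 1.94 CPM (SD, n = 3). ELF6 and JMJ13 are each overlapped by a gene on the other strand, and the sources used here do not state whether counting used strand, so their values are uncertain to that extent. Of 13 tested other JmjC genes, 5 were called higher and 2 lower, beside 27.9% and 30.5% of all tested genes. The largest of these changes was in JMJ22, a demethylase of other histone residues with a known role in seed germination, at 21.3, 22.4 and 22 CPM in ref6C and 41.5, 37.5 and 43 CPM in the triple mutant, a log2 fold change of 0.89 ± 0.05.

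Across 22411 tested genes, 6257 (27.9%) were called higher and 6830 (30.5%) lower in the triple mutant at an adjusted p below 0.05. At 2-fold or more, 510 genes (2.28%) were higher and 1196 (5.34%) lower. Without ref6C replicate 3, 6154 of 22586 tested genes (27.2%) were higher and 5918 (26.2%) lower, so the balance of all calls turned from more falls to more rises. At 2-fold or more, 578 genes (2.56%) were then higher and 1066 (4.72%) lower. Of the 2-fold calls, 483 rises and 1016 falls were made in both settings, while 27 rises and 180 falls were made with all libraries only. The gene AT2G01008 was called in opposite directions, with a log2 fold change of -2.23 with all libraries and 0.87 without that library. Against the same ref6C libraries, 61.2% of tested genes were called in the double mutant, and 20% differed between the triple and the double mutant. These comparisons share libraries, so their values are set side by side below and not tested against each other. The gene lists used throughout were chosen with earlier results of these data known. The shares of all tested genes given beside list counts are therefore a description and not a test.

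**Figure D1:**
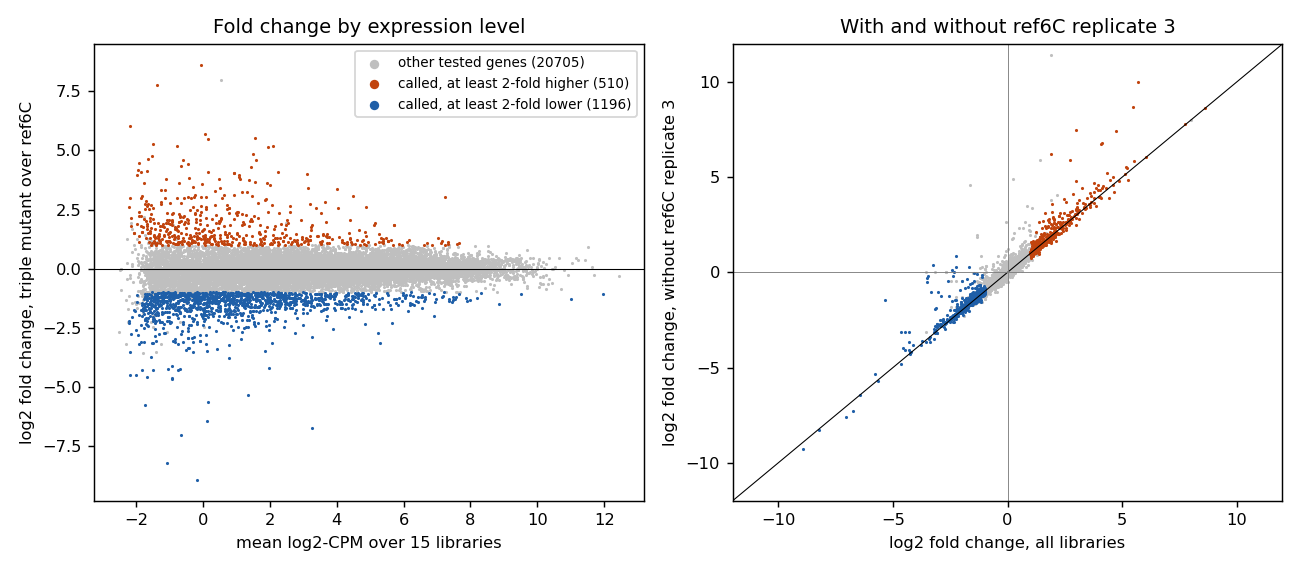
Left, log2 fold change of the triple mutant over ref6C (y axis) against mean log2-CPM over 15 libraries (x axis), 1 point per tested gene, with the 510 called rises of at least 2-fold in orange and the 1196 called falls in blue. Right, the fold change with all libraries (x axis) against that without ref6C replicate 3 (y axis). Most points lie near the diagonal, while a group of falls on the left returns towards 0 without that library.

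The largest called rises and falls are given for genes whose log2-CPM averaged 1 or more over the 15 libraries, and that were called with and without ref6C replicate 3 and with no overlap of the libraries, 10 in each direction. Some genes outside this rule, such as SAG12 among the falls, had larger fold changes. Among these rises were genes that were close to silent in ref6C. Genes this low in ref6C passed the filter on low counts and the limit on the mean through other groups. They could therefore be listed as rises but not as falls. The transposable element gene AT4G07850 was at 0.0681, 0.169 and 0.217 CPM in ref6C and 6.58, 8.33 and 6.62 CPM in the triple mutant. Its groups did not overlap, and the log2 fold change was 5.53 ± 0.25 (adjusted p 9.36e-17), or 5.87 ± 0.29 without ref6C replicate 3. AT2G04050, described as a MATE efflux family protein, a class of transporters, was at 0.204, 0.101 and 0.254 CPM in ref6C and 6.41, 7.52 and 6.93 CPM in the triple mutant, a log2 fold change of 5.20 ± 0.21. It lies in a run of 3 neighbouring genes that rose, and related neighbours may share reads. AT4G05380, described as a nucleoside triphosphate hydrolase, and its neighbour AT4G05370, described as an ATPase, had log2 fold changes of 5.13 ± 0.16 and 4.87 ± 0.21, with the same caution on shared reads. PNP-A, which encodes a secreted plant natriuretic peptide with a known role in water and ion balance, was at 0.273, 0.0676 and 0.217 CPM in ref6C and 3.6, 3.92 and 3.78 CPM in the triple mutant. All triple mutant values again lay above all ref6C values (log2 fold change 4.32 ± 0.27, adjusted p 1.35e-13). AT1G17960, described as a threonyl-tRNA synthetase, was at 1.5, 1.05 and 1.09 CPM in ref6C and 20.1, 19.3 and 19.1 CPM in the triple mutant, a log2 fold change of 4.0 ± 0.11. The remaining genes of this top 10 were AT2G03130, AT2G35570, AT2G41730 and AT4G12735, with log2 fold changes of 4.61, 4.11, 3.96 and 3.87. In each of the 10 the double mutant was also called higher than ref6C, with log2 fold changes from 3.99 for AT1G17960 to 6.13 for AT2G04050. The same ref6C libraries enter both comparisons, so these calls are not a separate observation. In 6 of the 10, among them AT2G04050 and PNP-A, the triple mutant was called lower than the double mutant, with log2 fold changes from -0.34 for AT2G35570 to -1.47 for AT2G41730. Over all 22411 tested genes, 6873 were called higher in the double mutant than in ref6C, and 2560 lower in the triple than in the double mutant. AT2G35570 overlaps another gene on the same strand.

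Of the 10 falls, the one with the largest fold change rested on ref6C replicate 3. AT2G07739, described as a Ycf1 protein, was at 0.681, 0.71 and 29.8 CPM in ref6C and 0.327, 0.33 and 0.0937 CPM in the triple mutant, and its log2 fold change of -5.36 ± 1.06 became -1.48 ± 0.40 without that library. The next of the 10 was MYB21, a transcription factor that acts in the jasmonate response of stamens and petals. MYB21 was at 5.01, 4.02 and 4.78 CPM in ref6C and 0.196, 0.293 and 0.25 CPM in the triple mutant. The triple mutant libraries all lay below the ref6C libraries, with a log2 fold change of -4.21 ± 0.25 (adjusted p 3.68e-14). The double mutant lay between them at 1.56, 1.86 and 1.95 CPM, and WT above them at 11.8 ± 0.558 CPM (SD, n = 3). MYB21 is overlapped by genes on the other strand. AT1G78420, a RING/U-box gene, was at 57.7, 56.4 and 54.6 CPM in ref6C and 5.96, 6.71 and 6.4 CPM in the triple mutant. Its libraries agreed closely within each group, and the log2 fold change was -3.15 ± 0.05 (adjusted p 3.18e-26). Among the other genes of this top 10, the pectin lyase-like genes AT5G48140 and PGA3 had log2 fold changes of -3.16 and -2.71, the beta-galactosidase gene BGAL13 -2.96, the glycosyl hydrolase gene AT3G10890 -2.68, and the glycine-rich protein gene AT1G04660 -2.54. BGAL13 was low in both groups, at 0.477, 0.608 and 0.833 CPM in ref6C and 0.164, 0.0734 and 0 CPM in the triple mutant.

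Like ELF6, another gene of the top 10 falls was lower in the double than in the triple mutant, which was noted after its values were seen. AT3G53140, described as an O-methyltransferase, was at 13.2, 21.3 and 18.9 CPM in ref6C and 3.08, 1.1 and 2.87 CPM in the triple mutant. In the double mutant it was at 0, 0 and 0.0926 CPM. The log2 fold change of the triple mutant over ref6C was -2.89 ± 0.20 (adjusted p 8.68e-13), with no overlap between the groups. Its mean level in the triple mutant was 13.2% of that in ref6C, beside 15.3% for ELF6. In the double mutant the mean of AT3G53140 was 0.17% of that in ref6C, beside 4.46% for ELF6. Over all 22411 tested genes, the step from the double to the triple mutant was called higher in 1923. AT3G53140 overlaps AT3G53130 on the same strand.

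**Figure D2:**
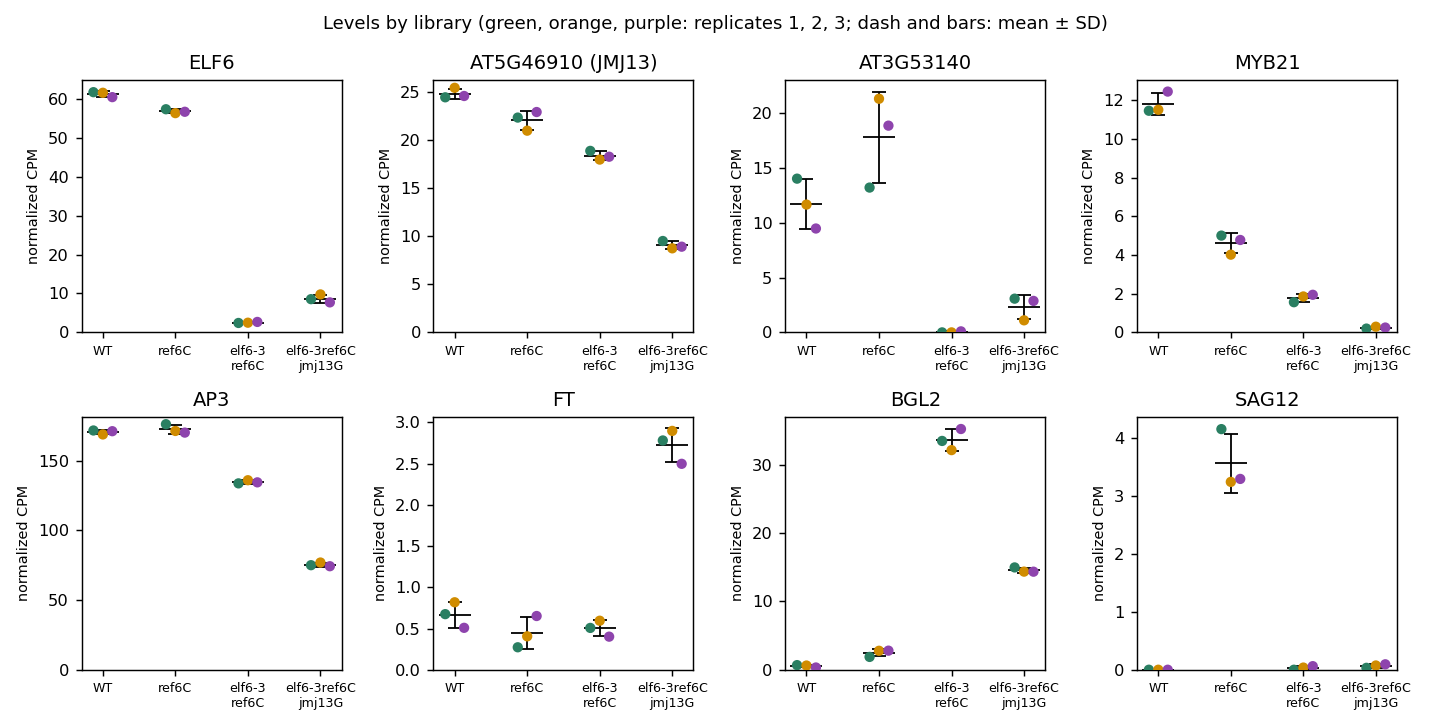
Normalized CPM (y axes, from 0) of 8 genes in the 3 libraries of WT, ref6C, elf6-3ref6C and elf6-3ref6Cjmj13G, with the mean and SD. ELF6 and AT3G53140 are lowest in the double mutant, AT5G46910 (JMJ13), MYB21 and AP3 are lowest in the triple mutant, FT is high in the triple mutant, BGL2 is highest in the double mutant, and SAG12 is high in ref6C.

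Petal and stamen identity genes were lower in the triple mutant. AP3 and PI encode the MADS-box partners that specify petals and stamens. AP3 was at 176, 171 and 170.1 CPM in ref6C and 75, 76.9 and 74.3 CPM in the triple mutant. The groups were far apart relative to their spread, with a log2 fold change of -1.20 ± 0.03 (adjusted p 9.34e-23). AP3 in the double mutant was at 134, 136 and 134 CPM. PI was at 274, 278 and 268 CPM in ref6C and 164, 164 and 163 CPM in the triple mutant, with a log2 fold change of -0.74 ± 0.03 (adjusted p 1.40e-18). SEP2, a MADS-box cofactor of floral organ identity, had a log2 fold change of -0.71 ± 0.03, and TT16, an ovule and seed coat regulator, -0.81 ± 0.17. For AP3, PI and SEP2, the double mutant differed from ref6C by -0.36, -0.24 and -0.15 on the log2 scale, and the triple from the double mutant by -0.84, -0.50 and -0.56. Of 17 floral MADS-box genes tested, 3 were called higher and 12 lower, beside 27.9% and 30.5% of all tested genes. Their median log2 fold change was -0.20, beside -0.02 over all tested genes. Without ref6C replicate 3, the counts were 3 and 10. AG, which specifies stamens and carpels, changed little (-0.11 ± 0.03). From the double to the triple mutant, 7 of the 17 were called higher and 4 lower, with a median log2 fold change of 0.11. Over all 22411 tested genes, that step was called higher in 1923 and lower in 2560.

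FT, which encodes the mobile flowering signal, was higher in the triple mutant. FT was at 0.273, 0.405 and 0.652 CPM in ref6C and 2.78, 2.9 and 2.5 CPM in the triple mutant, with no overlap, and its log2 fold change was 2.62 ± 0.23 (adjusted p 1.18e-10), or 3.00 ± 0.25 without ref6C replicate 3. The double mutant, at 0.507, 0.595 and 0.401 CPM, was not called different from ref6C (log2 fold change 0.17 ± 0.31, adjusted p 0.66), while the triple mutant was called higher than the double mutant (2.45 ± 0.22). The floral repressor FLC moved the other way, at 7.73, 8.11 and 8.84 CPM in ref6C and 2.72, 2.82 and 2.44 CPM in the triple mutant, a log2 fold change of -1.63 ± 0.10 (adjusted p 5.84e-14). All 5 other genes of the FLC clade were called lower: MAF4 (-2.29 ± 0.22), MAF1 (-1.54 ± 0.04), MAF5 (-0.89 ± 0.07), AGL31, also known as MAF2 (-0.69 ± 0.04), and MAF3 (-0.68 ± 0.05). MAF2 to MAF5 are tandem copies and may share reads, and FLC is overlapped by a gene on the other strand. SNZ, an AP2-type floral repressor, and TFL1, which keeps shoot meristems indeterminate, were called higher (1.69 ± 0.44 and 1.26 ± 0.12), and so was LFY, the floral meristem regulator (0.77 ± 0.09). In all, 10 of 24 tested flowering-time genes were called higher and 8 lower, 3 in each direction at 2-fold or more, beside 27.9% higher and 30.5% lower over all tested genes. CO, the photoperiod regulator upstream of FT, was not called (-0.0059 ± 0.14).

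Pollen genes were lower. Of 31 tested mature pollen genes, 23 were called lower, 15 of them at 2-fold or more, beside 30.5% and 5.34% of all tested genes. AGL29 was called higher, a call that was lost without ref6C replicate 2 and without elf6-3ref6Cjmj13G replicate 2. The median log2 fold change was -1.12, or -1.03 without ref6C replicate 3, with the same counts. VGDH1, a pectin methylesterase gene of the pollen tube, was at 19.9, 18.5 and 21.8 CPM in ref6C and 5.99, 5.61 and 6.06 CPM in the triple mutant. The groups did not overlap, and the log2 fold change was -1.77 ± 0.08 (adjusted p 5.07e-16). AGL66, a MADS-box regulator of pollen maturation, had a log2 fold change of -1.73 ± 0.20, and ANX2, a receptor kinase that keeps pollen tubes intact, -2.35 ± 0.59 at a low level, 0.273, 0.203 and 0.435 CPM in ref6C and 0.0327, 0.11 and 0.0312 CPM in the triple mutant. For PRK5, a pollen receptor kinase with 3 counts in the triple mutant against 14 in ref6C, the ratio was 0.206 (95% interval 0.038 to 0.740, counting error only). In bulk buds, fewer pollen grains and less RNA per grain cannot be told apart. Of 7 tested sperm cell genes, 5 were called lower, each at 2-fold or more, and without ref6C replicate 3 it was 5 of 8. DUO1, the regulator of the male germ line, was at 0.852, 1.18 and 1.56 CPM in ref6C and 0.458, 0.477 and 0.406 CPM in the triple mutant (log2 fold change -1.41 ± 0.28), and its targets DAZ2 and MGH3, the latter a sperm-specific histone, had -2.26 ± 0.41 and -1.66 ± 0.16. HAP2, needed for gamete fusion, and PCR11 were not called (0.10 ± 0.16 and 0.06 ± 0.57). All 6 pollen coat genes were called lower. The abundant GRP19, an oleosin-type protein of the pollen coat, was at 1057, 1130.1 and 1153 CPM in ref6C and 556, 519 and 534 CPM in the triple mutant, a log2 fold change of -1.05 ± 0.03 (adjusted p 1.36e-19). Each of the 6 was called higher in the triple than in the double mutant, with a median log2 fold change of 0.39. Over all 22411 tested genes, that step was called higher in 1923. The GRP genes are tandem copies, so the split of reads among them is uncertain. Summed over the 33 mature pollen genes, ref6C stood at 884 to 924 CPM, the triple mutant at 409 to 425 CPM and the double mutant at 319 to 330 CPM. WT stood at 1140 to 1200.5 CPM, and ref6-3 at 411 to 427 CPM, near the triple mutant.

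Genes of the anther wall and of the tapetum, the layer that feeds pollen, were also lower. Of 23 tested, 19 were called lower, 0 of them at 2-fold or more, and 2 higher, with a median log2 fold change of -0.32. The share called lower over all tested genes was 30.5%, and 5.34% at 2-fold or more. CALS5, which lays down callose around microspores, was at 40.5, 37.9 and 39.6 CPM in ref6C and 23.2, 22.4 and 19.7 CPM in the triple mutant, a log2 fold change of -0.86 ± 0.05. SWEET8, a sugar transporter that feeds microspores, and TDF1, a tapetum regulator, had -0.68 ± 0.05 and -0.56 ± 0.10. Of 17 meiosis genes, 4 were called higher and 2 lower, both below the shares of 27.9% and 30.5% over all tested genes. The higher count was 2 without ref6C replicate 3 and 2 without elf6-3ref6Cjmj13G replicate 1. The cohesin gene SYN1 fell most (-0.97 ± 0.12), and the recombinase gene DMC1 had -0.26 ± 0.05. Of 19 gynoecium genes, 3 were called in each direction, again below those shares. ALC, a valve margin regulator, was at 63.4, 61.4 and 59.3 CPM in ref6C and 94.8, 95.9 and 97.4 CPM in the triple mutant (log2 fold change 0.65 ± 0.03), with the double mutant at 61.2, 64.8 and 63.6 CPM. Photosynthesis genes of green tissue, measured as markers of sepals and other green cells, were called lower in 23 of 30 cases, with a median of -0.31, and higher in 4. Their summed level was 29260 to 30371 CPM in ref6C and 24267 to 25732.5 CPM in the triple mutant. The part of that difference in the floral results was not tested.

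Jasmonate genes were lower. Jasmonate is the hormone that drives stamen filament growth, anther opening and petal growth through MYB21 and MYB24. Of 37 tested genes, 28 were called lower, 8 of them at 2-fold or more, and 1 higher, with a median log2 fold change of -0.55, beside 30.5% of all tested genes lower and 5.34% at 2-fold or more. Without ref6C replicate 3, 26 were lower, 6 of them at 2-fold or more. MYB24 was at 1.46, 1.76 and 1.52 CPM in ref6C and 0.0327, 0.183 and 0.125 CPM in the triple mutant, with no overlap and a log2 fold change of -3.78 ± 0.35 (adjusted p 4.51e-10). It too is overlapped by a gene on the other strand. AOC1, an enzyme of jasmonate synthesis, was at 6, 6.35 and 6.19 CPM in ref6C and 1.9, 1.65 and 1.62 CPM in the triple mutant (log2 fold change -1.84 ± 0.11). The synthesis genes LOX4, LOX2, OPR3 and AOS had -1.12 ± 0.07, -0.86 ± 0.03, -0.47 ± 0.04 and -0.42 ± 0.05. Among the JAZ repressors, which are themselves induced by the hormone, JAZ7, JAZ8, JAZ5 and JAZ1 had -1.67 ± 0.33, -1.05 ± 0.26, -0.98 ± 0.05 and -0.75 ± 0.05. COI1, the receptor, was not called (-0.02 ± 0.04), and VSP2 was the gene called higher (0.20 ± 0.02). In MYB21, MYB24 and AOC1 the step from the double to the triple mutant (-2.85, -2.55 and -1.18) was called beside that from ref6C to the double mutant (-1.35, -1.23 and -0.65). CYP94B3, which inactivates jasmonate, was called higher in the double mutant (0.79 ± 0.31) and lower in the triple mutant (-1.36 ± 0.42) than in ref6C. Of 6 genes of floral scent and nectaries, 4 were called lower, among them the terpene synthase genes TPS14 and TPS10 (-2.10 ± 0.09 and -1.09 ± 0.07) and the nectary invertase gene cwINV4 (-1.02 ± 0.06).

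Salicylate and defence genes were higher. Of 18 tested, 14 were called higher, 6 of them at 2-fold or more, and 3 lower, with a median log2 fold change of 0.81, beside 27.9% of all tested genes higher, 2.28% at 2-fold or more. Without ref6C replicate 3, 13 were higher and 0 lower by edgeR, with a median of 0.86, and 1 was lower at an unadjusted p below 0.05. DESeq2 with all libraries called 2 lower. BGL2, the pathogenesis-related glucanase PR2, was at 1.87, 2.77 and 2.79 CPM in ref6C and 15, 14.3 and 14.3 CPM in the triple mutant. The groups did not overlap, with a log2 fold change of 2.55 ± 0.10 (adjusted p 1.04e-17). The double mutant was higher again, at 33.4, 32.1 and 35.2 CPM, and WT was at 0.538 ± 0.186 CPM (SD, n = 3). SARD1 and CBP60G, the partner regulators of salicylate synthesis, had log2 fold changes of 2.37 ± 0.11 and 2.27 ± 0.24. SARD1 was at 1.74, 1.86 and 1.56 CPM in ref6C and 8.64, 9.28 and 8.93 CPM in the triple mutant. FMO1, which makes the systemic immunity signal N-hydroxypipecolic acid, had 89 counts in the triple mutant and 2 in ref6C, a ratio of 42.9 (95% interval 11.5 to 360, counting error only). EDS16, the isochorismate synthase gene, and EDS5 and PBS3 of the same salicylate synthesis pathway were called lower with all libraries (-0.29 ± 0.11, -0.35 ± 0.12 and -0.15 ± 0.06), and PR1 was not called (-0.59 ± 0.37). The triple mutant was called lower than the double mutant in 13 of the 18 and higher in 0 by edgeR, at a median of -0.59, with 0 higher at an unadjusted p below 0.05 and 0 by DESeq2. Over all 22411 tested genes, that step was called lower in 2560 and higher in 1923. Of 17 senescence genes, 12 were called lower, 2 of them at 2-fold or more, and 3 higher, with a median log2 fold change of -0.30. Over all tested genes, 30.5% were called lower, 5.34% at 2-fold or more. SAG12, a cysteine protease gene of ageing leaves, was at 4.16, 3.24 and 3.3 CPM in ref6C and 0.0327, 0.0734 and 0.0937 CPM in the triple mutant, a log2 fold change of -5.65 ± 0.33 (adjusted p 1.39e-13), while in WT it was listed at 0 in each library. Few counts underlie the triple mutant level of SAG12, so the size of its fall is uncertain.

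**Figure D3:**
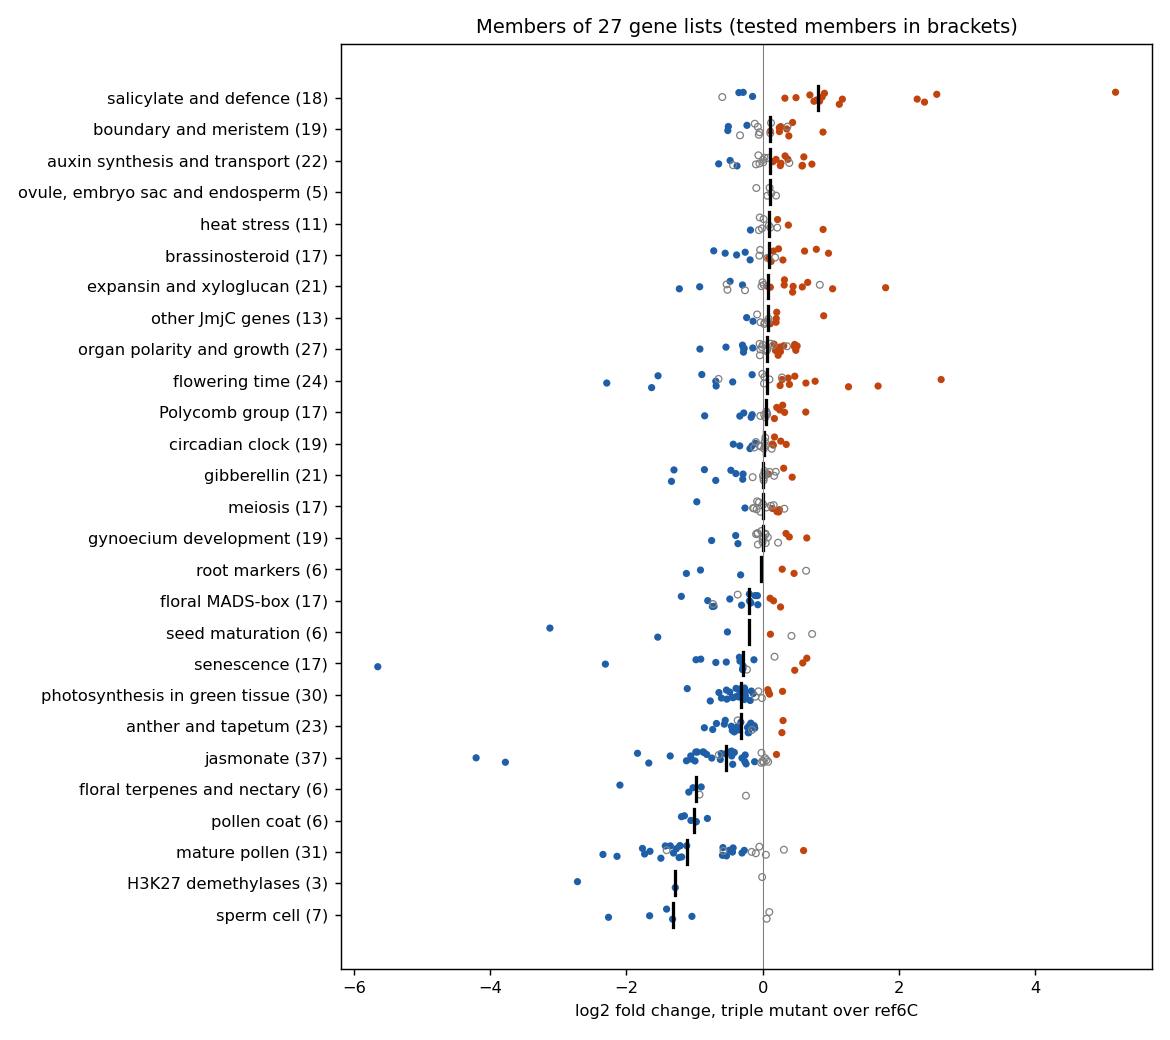
Log2 fold change of the triple mutant over ref6C (x axis) for tested members of 27 gene lists (y axis), with called members filled (orange higher, blue lower), others open, and the list median as a black bar. Salicylate and defence has the highest median (0.81), while mature pollen, pollen coat and sperm cell lie near or below -1.

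Regulators of growth and of chromatin were called in both directions, and their counts stand beside 27.9% of all tested genes called higher and 30.5% lower. Of 19 boundary and meristem genes, 8 were called higher and 3 lower. CUC3, which separates organs, was at 5.42, 5.07 and 5.29 CPM in ref6C and 9.33, 9.39 and 10.4 CPM in the triple mutant (log2 fold change 0.88 ± 0.08), and the homeobox genes KNAT1 and KNAT2 had 0.44 ± 0.04 and 0.38 ± 0.07. WUS, which maintains stem cells, was at 17, 18.4 and 18.9 CPM in ref6C and 11.5, 13.9 and 12.9 CPM in the triple mutant (log2 fold change -0.50 ± 0.07). Of 27 organ polarity and growth genes, 10 were higher and 7 lower. BPEp, which limits petal size, had -0.92 ± 0.04. Of 22 auxin genes, 10 were higher and 3 lower. YUC4, an auxin synthesis gene, was among the higher (0.72 ± 0.12). Of 21 gibberellin genes, 3 were higher and 8 lower, and the oxidase genes ATGA2OX1, which inactivates the hormone, and GA3OX3, which completes its synthesis, fell most (-1.34 ± 0.10 and -1.30 ± 0.17). Of 21 expansin and xyloglucan genes, 10 were higher and 4 lower. TCH4, a touch-induced cell wall enzyme, was at 1.5, 1.18 and 1.16 CPM in ref6C and 4.25, 5.17 and 4.09 CPM in the triple mutant (log2 fold change 1.8 ± 0.14). Of 17 brassinosteroid genes, 8 were higher and 5 lower, with PRE5, a growth-promoting helix-loop-helix gene, at 0.97 ± 0.18. Of 17 tested Polycomb genes, 6 were higher and 5 lower. VIN3, which helps silence FLC in the cold, had -0.85 ± 0.10, the ubiquitin ligase gene RING1B 0.63 ± 0.08 and TFL2, also known as LHP1, which binds the H3K27 mark, 0.32 ± 0.04. Of 19 clock genes, 5 were called in each direction, and of 11 heat stress genes, 3 were higher and 1 lower. Without ref6C replicate 3, 2 of 12 heat stress genes were higher, and the lower call was lost. In 6 tested seed genes, 1 was higher and 3 lower, or 2 and 3 without ref6C replicate 3, with SESA4, a seed storage albumin gene, at -3.12 ± 0.36 and FUS3, an embryo regulator, at -1.54 ± 0.17. Of 6 tested root genes, 2 were higher and 3 lower, and of 5 tested ovule and embryo sac genes 0 were called at an adjusted p below 0.05 by edgeR, 1 had an unadjusted p below 0.05, and DESeq2 called 0. Genes named above that another gene overlaps on the other strand, with the same uncertainty as for ELF6, also include AT2G07739, AT3G10890, VIN3, RING1B, TFL2, ALC, SYN1, DUO1, TPS14, SARD1, CO, AGL29, COI1 and EDS5.

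All 6 tested snRNA genes, which encode spliceosome RNAs, were called at least 2-fold higher, beside 2.28% of all tested genes, with a median log2 fold change of 2.18. Some were near 0 in ref6C. U2.6 was at 0.068, 0.068 and 0.036 CPM there and at 0.295, 0.550 and 0.156 CPM in the triple mutant. U2.3 was at 0.136, 0.203 and 0.072 CPM in ref6C. Genes this low in ref6C passed the filter on low counts through other groups, so the filter in part set this count of rises. Of 19 tested snoRNA genes, which guide rRNA processing, 4 were called at least 2-fold higher, and the others were not called, with a median of 0.20 over the 19. U3D, a snoRNA gene, was at 4.05, 3.72 and 3.22 CPM in ref6C and at 18.9, 20.2 and 17.65 CPM in the triple mutant. These groups did not overlap, and the double mutant was higher still, at 29.6, 31.2 and 30.5 CPM. Such genes come in near-identical copies, so the split of reads among them is uncertain. The snRNA genes and U3D moved with rRNA, whose AT3G41768 levels in the double mutant were 4974 to 7336 CPM, and the part of rRNA content in these values was not tested. Of 296 transposable element genes, 27 were at least 2-fold higher and 52 lower, or 34 and 39 without ref6C replicate 3. Among families of at least 20 tested genes with one shared description, listed after their values were seen, 14 of 41 invertase or pectin methylesterase inhibitor superfamily genes and 17 of 69 pectin lyase-like genes were at least 2-fold lower, beside 5.34% of all genes. In the DUF295 family, 10 of 28 were at least 2-fold higher.

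Genes that fell often lay next to each other. Of 1011 genes with a position that were at least 2-fold lower with and without ref6C replicate 3, 22.0% had an adjacent tested gene that was also lower, beside 7.94% of other tested genes. Of the 482 higher genes, 14.5% had an adjacent higher gene, beside 3.99% of others. The longest unbroken run of lower genes held 13, from AT3G21960 to AT3G22057. Another run, from BBX10 (AT3G21880) to AT3G21945, lay next to it, with AT3G21950 between them. Joined across AT3G21950, these runs are described here as a single stretch at chr3:7706257-7770261 (TAIR10.1). It holds 23 tested genes, and 22 of them were at least 2-fold lower in both settings. In 15 of the genes the description is of the DUF26 or receptor-like protein kinase-related kind, a family of secreted cysteine-rich proteins. AT3G21950, inside the stretch, was the exception, with a log2 fold change of -0.10 ± 0.13 (SE). AT3G21970, the highest of them, was at 16.9, 15.8 and 16.8 CPM in ref6C and at 5.76, 4.84 and 5.40 CPM in the triple mutant. These values did not overlap, and the double mutant was lower, at 2.97, 3.42 and 3.15 CPM. In ref6-3, AT3G21970 was at 5.76, 6.62 and 5.04 CPM, near the triple mutant. The median log2 fold change over the 23 genes was -1.47 for the triple mutant and -1.84 for the double mutant over ref6C. Between the triple and the double mutant, 5 of the genes were called higher and 1 lower, beside 1923 and 2560 of all 22411 tested genes. Some genes of the stretch rest on few counts, such as AT3G22030 at 0.341, 0.507 and 0.543 CPM in ref6C. The stretch was picked for its length after its values were seen. The family genes are related in sequence, so reads may be shared among them.

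**Figure D4:**
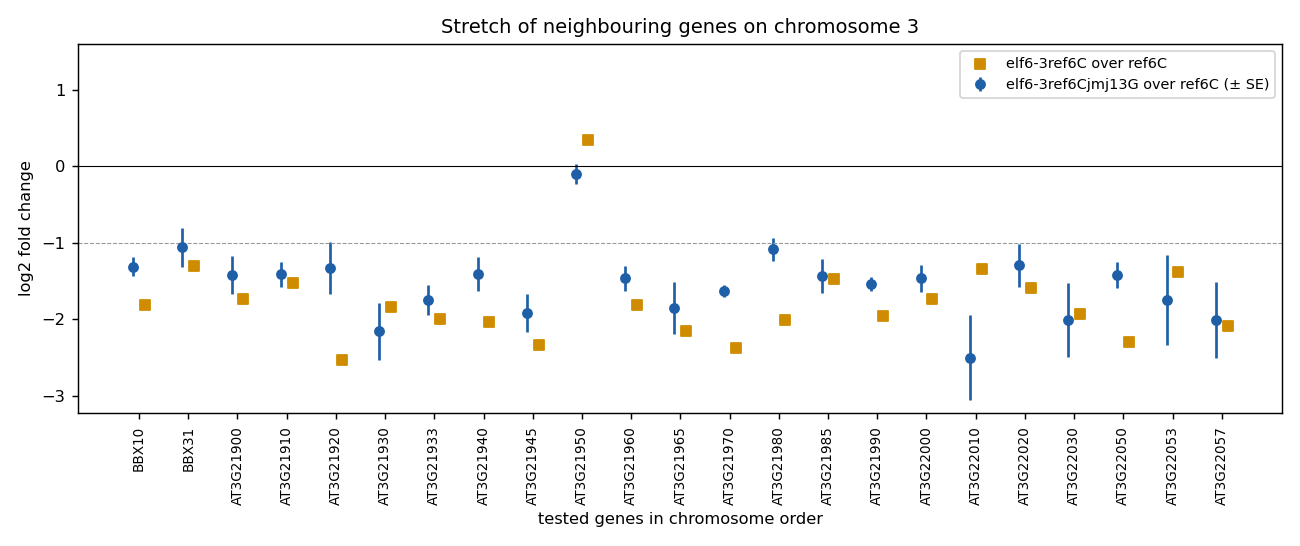
Log2 fold change over ref6C (y axis) of the 23 tested genes of the stretch on chromosome 3, in chromosome order (x axis), for the triple mutant (blue points with SE) and the double mutant (orange squares), with a dashed line at -1. In the double mutant 22 of the 23 were called lower, beside 6848 of all 22411 tested genes, and AT3G21950 stands apart near or above 0. The stretch was picked for falls of the triple mutant over these same ref6C libraries, so the double mutant count is not independent of that choice.

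The 250 bases before the annotated gene start are shown for 4 of these genes, as examples of promoters of the stretch that hold a shared word, chosen after its positions were seen. The word of 8 bases held by most of the 15 family promoters, ACTTTTTC on either strand (GAAAAAGT in reverse), was picked after a search of all words in them. It stands in 9 of 15 (60%), beside 753 of 22327 (3.37%) windows of the same length before all tested genes. In the 9 it lies 67, 131, 133, 146, 149, 150, 209, 228 and 250 bases before the start, so its distance varies. The members are related neighbouring genes, and the match is a description of these letters only. Sequences are from RefSeq TAIR10.1, plus strand, 5′ to 3′, with the word in capitals.
AT3G21940, chr3:7729396-7729645: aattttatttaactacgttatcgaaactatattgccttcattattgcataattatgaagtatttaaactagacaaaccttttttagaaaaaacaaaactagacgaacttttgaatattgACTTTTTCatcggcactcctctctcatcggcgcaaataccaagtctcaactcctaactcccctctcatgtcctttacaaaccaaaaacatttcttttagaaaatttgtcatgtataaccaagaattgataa
AT3G21960, chr3:7736730-7736979: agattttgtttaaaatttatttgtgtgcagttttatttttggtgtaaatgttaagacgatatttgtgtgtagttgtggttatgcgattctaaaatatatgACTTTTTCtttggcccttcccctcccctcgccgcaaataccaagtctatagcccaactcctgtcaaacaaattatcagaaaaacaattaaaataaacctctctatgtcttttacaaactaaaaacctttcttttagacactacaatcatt
AT3G21990, chr3:7748997-7749246: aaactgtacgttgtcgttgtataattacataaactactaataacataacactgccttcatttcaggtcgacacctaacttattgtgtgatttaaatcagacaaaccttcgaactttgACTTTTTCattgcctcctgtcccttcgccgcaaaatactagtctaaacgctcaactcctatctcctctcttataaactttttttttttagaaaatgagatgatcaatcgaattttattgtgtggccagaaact
AT3G22000, chr3:7751436-7751685: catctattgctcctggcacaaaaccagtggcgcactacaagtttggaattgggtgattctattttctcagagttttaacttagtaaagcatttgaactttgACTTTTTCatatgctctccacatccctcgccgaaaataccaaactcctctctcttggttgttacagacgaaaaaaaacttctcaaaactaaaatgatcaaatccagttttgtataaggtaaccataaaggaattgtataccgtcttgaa
The word lies 131, 150, 133 and 149 bases before the start in these 4. The log2 fold changes of the 4 genes were -1.41 ± 0.22, -1.46 ± 0.17, -1.54 ± 0.09 and -1.46 ± 0.17 (SE).

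The DNA words that the REF6 zinc fingers are known to bind (CTCTGCTC, CTCTGCTT, CTCTGTTC and CTCTGTTT, either strand) were counted in the same windows. They stand in 5.68% of windows before all tested genes, in 4.98% before the 482 higher genes and in 5.14% before the 1011 lower genes. The shares were near the background of all genes. A window without these letters says nothing of binding elsewhere in a gene.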

How the data were processed

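Total RNA of closed flower buds was made into libraries with a stranded kit, per the labels' protocols. The authors deposited counts per gene and library without normalization, FPKM values, and their own log2 fold changes and p-values against WT; the counts alone were used here. STAR, RSEM 1.2.22, DESeq2 and the TAIR10 build appear in the submitters' processing notes, which give no roles. Strand use in counting is not stated there.

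The counts of all 15 libraries entered a single fit of edgeR 4.0.16 (R 4.3.3) with TMM normalization, filterByExpr by group and the quasi-likelihood F-test, with Benjamini-Hochberg adjustment over 22411 genes. Genes were called at an adjusted p below 0.05. CPM are TMM-normalized, and the SE of a log2 fold change was taken from the F statistic. The biological coefficient of variation between libraries was 2.51%. The fit was tested on simulated counts first. Alternatives were leaving out each compared library, 2 other normalizations, 2 other filters, DESeq2 1.42.0, a fit of the 6 libraries alone and a replicate block.

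The genotypes and the 27 gene lists were chosen with earlier results of these data known. Of 542 list entries, 513 were kept, 506 by the reference symbol and 7 by description. Genes named are the targeted genes, the 10 largest called rises and falls (mean log2-CPM of at least 1, called with and without ref6C replicate 3, libraries not overlapping), up to 4 called members per list, and others by role with their values seen. Positions, promoters and overlaps are from RefSeq TAIR10.1.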

Additional observations from a re-analysis of the deposited data

How the results depend on the processing

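The counts of called genes stayed within 1.5 times their values in every one of the 13 alternatives. Over the fits that left out a single library, rises numbered 5791 to 6154 and falls 5918 to 6428, and at 2-fold or more 495 to 578 and 1066 to 1232. Without a filter on low counts the 2-fold falls numbered 1561, and with a filter of 1 CPM in 3 libraries 891. DESeq2 gave 504 rises and 1154 falls of at least 2-fold, and upper-quartile factors 492 and 1236. Same-numbered libraries of the groups did not deviate together (correlations -0.037, -0.014 and -0.0079), so no strong pairing by number was seen. A weaker shared effect could be missed, and the labels do not say whether same-numbered libraries belong together. With the replicate number as a block, 507 genes were at least 2-fold higher and 1199 lower.

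Of 1564 values of named genes under alternatives, 1542 kept their direction and side of the threshold, 11 lost and 4 gained a call, and 7 turned sign. The sign turned for REF6 (AT3G48430), which was not called: 0.007 without ref6C replicate 3, 0.031 without elf6-3ref6Cjmj13G replicate 3, 0.0078 with no filter and 0.002 with only the 6 libraries. It also turned for AT1G25055, at -0.52 without ref6C replicate 3, -0.29 without elf6-3ref6Cjmj13G replicate 3 and -0.0795 with the replicate block. Leaving out single libraries gave REF6 from -0.0326 to 0.031 and AT1G25055 from -0.52 to 0.60. The cause was not tested. Of 118 named genes called with all libraries, 118 were called in the same direction without ref6C replicate 3, and the fold change moved by over 0.5 on the log2 scale in AT2G07739 and AT2G41730 alone. IND and PRK5 lost their call with DESeq2. Of 702 list counts, 39 moved by over 1.5 times, each a count of 5 or fewer with all libraries: without ref6C replicate 2, brassinosteroid genes called lower numbered 3, as without elf6-3ref6Cjmj13G replicate 3, where photosynthesis genes called higher numbered 1. Depth limits PRK5, FMO1, ANX2, SAG12, MYB24 and BGAL13, among others, which rest on few counts in at least 1 group.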

Other observations

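The tested genes whose values in ref6C replicate 3 differed most from the other ref6C libraries were CPuORF31 and AT1G25055. CPuORF31, a conserved peptide upstream open reading frame, was listed at 0, 0 and 9.78 CPM in ref6C, at 0 in each elf6-3ref6C library, and at 8.84, 9.9 and 16.7 CPM in elf6-3ref6Cjmj13G. AT1G25055, an F-box gene, was at 8, 10 and 0 CPM in ref6C and at 3.67, 6.46 and 8.49 CPM in elf6-3ref6Cjmj13G. In 201 tested genes ref6C replicate 3 was over 2 times both other ref6C libraries, and 47 of these were among the 1196 genes called at least 2-fold lower and 45 among the 510 called at least 2-fold higher.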
